A study of Drosophila melanogaster with 12 samples.

Results

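Genes of mitochondrial and peroxisomal fatty acid oxidation, together with the peroxins that build the peroxisome, were followed across 2 tissues and across induction of an RNAi transgene against Pnt. The members were 26 genes listed by name and every gene whose FlyBase symbol is Pex followed by a number, which added 15, giving 41. Of these, 38 had a row in both deposited count sheets, which share 10005 genes and hold 11056 genes in the fat body and 10358 in the gut. Etf-QO, Pex7 and Pex23 were not analysed here. The 38 were 3 genes of the carnitine shuttle, 6 mitochondrial acyl-CoA dehydrogenases, 5 genes of the later steps of mitochondrial beta-oxidation, 1 subunit of the electron transfer flavoprotein, 6 acyl-CoA oxidases, 3 other peroxisomal oxidation enzymes, the regulator Hnf4 and 13 peroxins.

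Poly(A) RNA was sequenced from fat bodies and guts of mated adult female Drosophila that carried UAS-Pnt RNAi and the S106 GeneSwitch driver in an outbred, Wolbachia-free Dahomey background with a white mutation. In induced flies, 6 days of feeding with RU486 switched the transgene on, and control flies of the same genotype ate food with the ethanol vehicle. The treatment text of the labels gives 200 µM RU486 for every sample, so the groups follow the separate field that states whether the RNAi was induced. The libraries were 3 induced fat bodies (101, 102 and 103), 3 control fat bodies (104, 105 and 106), 3 induced guts (107, 108 and 109) and 3 control guts (110, 111 and 112), and values are given in this order. S106 drives expression in both organs, each library came from organs pooled over several flies, the Malpighian tubules were taken off the gut, and the fat body was what was left of the abdomen after the reproductive organs were removed. No flies ate RU486 without the RNAi transgene, so the inducer and the RNAi cannot be told apart. Nothing in the labels says that the libraries of a group came from separate cultures, so p-values measure the spread between these libraries.

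Long-chain fatty acids enter mitochondria as carnitine esters and are then shortened in a repeated cycle of oxidation, hydration, a second oxidation and thiolysis. Peroxisomes run a related cycle whose first step is catalysed by acyl-CoA oxidases, which pass electrons to oxygen and make hydrogen peroxide. Peroxisomal enzymes are imported from the cytosol by peroxins. In Drosophila the fat body stores and mobilises lipid, the gut absorbs and exports it, and the oenocytes of the abdominal wall make very-long-chain lipids of the cuticle.

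Total counts were between 4932359 and 9580571 per fat body library and between 5916313 and 10254951 per gut library. Levels are given as CPM, read counts relative to the library size after TMM scaling over all 12 libraries. Transcript of pnt, the RNAi target, had 7.11 to 9.73 CPM in induced and 9.59 to 11.7 CPM in control fat bodies (log2 fold change -0.30, adjusted p = 0.986, edgeR), and 24.9 to 28.2 CPM in induced and 27.5 to 34.9 CPM in control guts (log2 fold change -0.31, adjusted p = 0.838, edgeR), so a lower level was not called in either tissue. Markers fitted the tissue labels: 13 gut epithelium genes (trypsins, amylase and others) summed to 33.8 to 84.1 CPM in fat bodies against 23931 to 43072 CPM in guts, and 8 fat body genes (yolk proteins, apolpp and others) summed to 23309.6 to 100137 CPM in fat bodies against 789 to 2638 CPM in guts. Of the fat body markers, the larval storage gene Lsp2 was at 0 to 3.99 CPM in fat bodies, and tobi was at 3.36 to 25.7 CPM in fat bodies against 228 to 1245 CPM in guts. The fat body preparations also held oenocyte transcript, with 8 oenocyte markers summed to 29273 to 68703 CPM against 686 to 1278 CPM in guts. Among them the oenocyte P450 gene Cyp4g1 was at 17403 to 50933 CPM against 43.3 to 104 CPM in guts. The marker bond went the other way, at 8.48 to 21.5 CPM in fat bodies against 28.8 to 57.4 CPM in guts. Muscle transcript was present in both tissues. A smaller share of a cell type and less RNA per cell cannot be told apart in such bulk samples.

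In the members, control library 106 of the fat body and control library 112 of the gut stood apart from the other libraries of their groups. Both were singled out from these values, so fits without them are no independent tests of the members. Library 106 held the highest of the 6 fat body values for 32 of 38 members, and was over 1.5 times the highest of the other 5 for 25 members. Of all genes of the fat body sheet, 30.6% were highest in library 106 and 11.6% were over that 1.5-fold mark. Library 112 fell among the induced guts for 18 members and below all 3 of them for 14, and held the lowest of the 6 gut values for 14. Over all gut genes it was not the most extreme gut, with 22.3% of genes lowest and 23.4% highest in it. For control gut 111 these shares were 29.5% and 27.2%. Control guts 110 and 111 both lay above all 3 induced guts for 25 of 38 members, as they did for 26.0% of all gut genes. Many results whose call or size rests on these libraries are therefore also given without them. Values given only with all libraries may rest on them too.

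Transcripts of whd and CPT2 of the carnitine shuttle, of 5 peroxisomal oxidation enzymes and of 7 peroxins were lower in the fat body than in the gut in control flies, and CG17544, CG9527, CG17597 and CG9707 were over 6-fold lower. None of the mitochondrial dehydrogenases and later enzymes passed the test in these flies. In induced flies 15 members were lower and 1 was higher in the fat body at 10% FDR in edgeR's quasi-likelihood test over the 12 libraries, beside 21.0% of all 10005 genes lower and 22.7% higher. In control flies 14 members were lower, beside 19.9% of all genes, and 1 was higher, beside 18.3%. The median log2 fold change of fat body over gut was -0.56 over the 38 members in induced flies, beside 0.05 over all genes, and -0.55 in control flies, beside 0.00 over all genes. The control comparison depended on the libraries that stood apart: without 106 alone 22 members were lower, beside 25.1% of all genes, with a median log2 fold change of -0.91 beside -0.02 over all genes. Without both 106 and 112 (an alternative chosen after seeing the data) 25 were lower, beside 30.7% of all genes, and 1 was higher, with a median of -1.0 beside 0.00 over all genes.

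**Figure D1:**
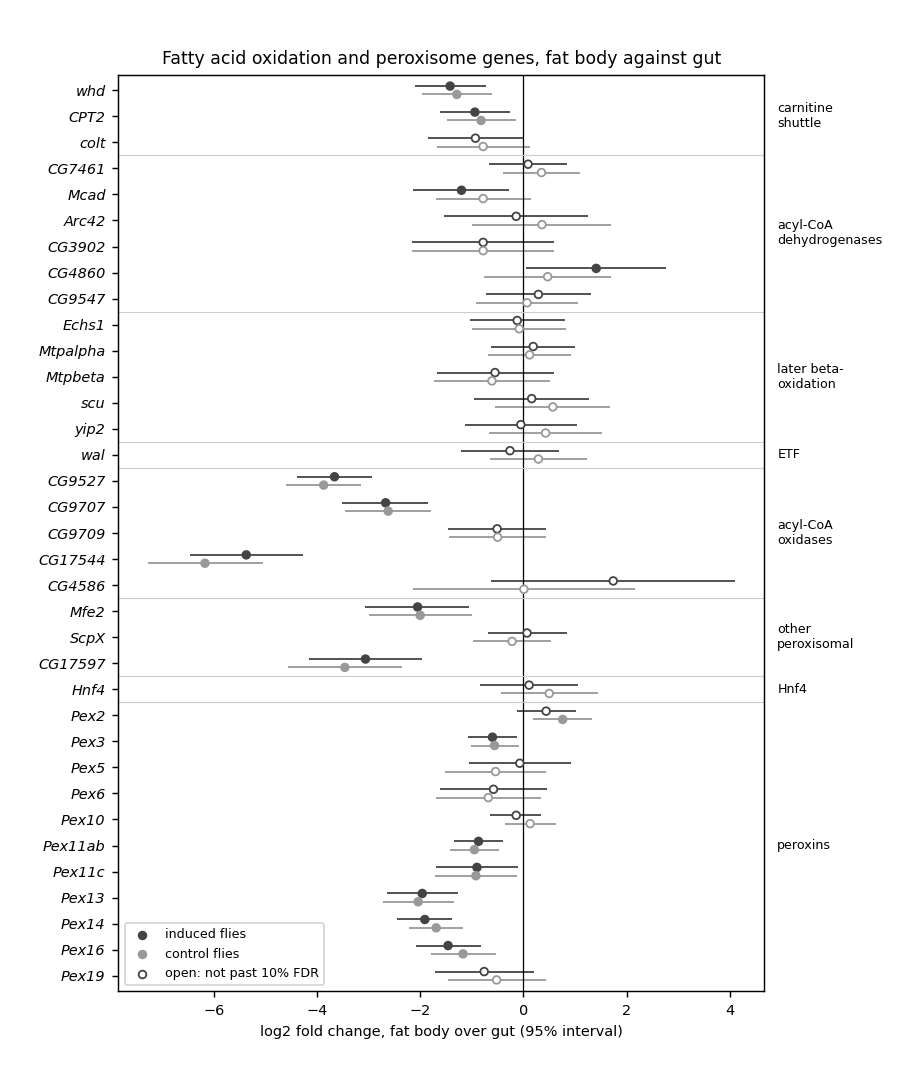
Log2 fold change of fat body over gut for 35 of the 38 members, grouped by role, in induced flies (dark) and control flies (light), with 95% intervals from edgeR; filled points passed 10% FDR. The points furthest to the left are CG17544 at -5.37 in induced and -6.17 in control flies, and the later beta-oxidation genes lie around 0.

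Among the acyl-CoA oxidases, CG17544 differed most. It is annotated as an acyl-CoA oxidase and lies on chromosome arm 2L from 19390370 to 19398493 on the minus strand. All positions here come from Ensembl's annotation of BDGP6.54, of the same genome release as the one the authors aligned to. In induced flies it stood at 2.03, 1.77 and 1.97 CPM in fat bodies and at 64.8, 93.7 and 80.0 CPM in guts. In control flies the values were 2.23, 1.46 and 2.97 CPM in fat bodies and 179, 244 and 59.5 CPM in guts. No fat body library came near any gut library, and only 12 to 26 reads stood behind each fat body value. It was 41.2-fold lower in the fat body of induced flies (log2 -5.37, standard error 0.50, adjusted p = 2.91e-06, edgeR) and 71.9-fold lower in that of control flies (log2 -6.17, standard error 0.51, adjusted p = 9.97e-07, edgeR), and 113-fold lower in control flies without libraries 106 and 112.

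CG9527, named Acox3 in the present annotation (2L, 6426724 to 6448403, minus strand), followed the same pattern at higher levels. It had 16.4, 13.2 and 19.2 CPM in induced fat bodies against 196, 219.7 and 201 CPM in induced guts, and 21.5, 20 and 42.9 CPM in control fat bodies against 511, 403 and 320.1 CPM in control guts. It was 12.6-fold lower in the fat body of induced flies (log2 -3.66, 95% interval -4.39 to -2.93) and 14.6-fold lower in that of control flies (log2 -3.87, 95% interval -4.60 to -3.14), and both passed the test. Without libraries 106 and 112 it was 22-fold lower in control flies.

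CG9707 and CG9709 (Acox57D-p and Acox57D-d) are adjacent paralogs on 2R, from 21386309 to 21389276 and from 21389405 to 21392439 on the plus strand, with 128 bases between them. CG9707 had 39.6, 41.2 and 59.3 CPM in induced fat bodies against 185, 329 and 379 CPM in induced guts, and was 6.38-fold lower in the fat body. It had 34.4, 57.1 and 91.2 CPM in control fat bodies against 449.6, 339.9 and 332 CPM in control guts, 6.14-fold lower in the fat body (log2 -2.62, standard error 0.38, adjusted p = 0.000132, edgeR). Without libraries 106 and 112 CG9707 was 8.64-fold lower in control flies. CG9709 had 31, 53.1 and 111 CPM in control fat bodies against 118, 102 and 56.8 CPM in control guts, overlapping groups with a log2 fold change of -0.50 (95% interval -1.45 to 0.44). Without library 106 it passed the test in control flies (log2 -1.13, adjusted p = 0.0372, edgeR), as it did without 106 and 112 (log2 -1.39, adjusted p = 0.00918, edgeR). In induced flies the CG9709 groups overlapped too, at log2 -0.51 (95% interval -1.46 to 0.44), which did not pass. The neighbours thus stood in different proportion in the tissues: per kb of exon, CG9707 was 0.69 to 0.978 times CG9709 in the 6 fat bodies and 2.95 to 5.16 times CG9709 in the 6 guts, a ratio taken within each library that no scaling between libraries touches. How the counting treated reads that match both paralogs is not given in the sources used here.

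CG4586, another oxidase gene, did not pass the test between tissues and was near the limit of counting, with 0 to 37 reads per library.

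**Figure D2:**
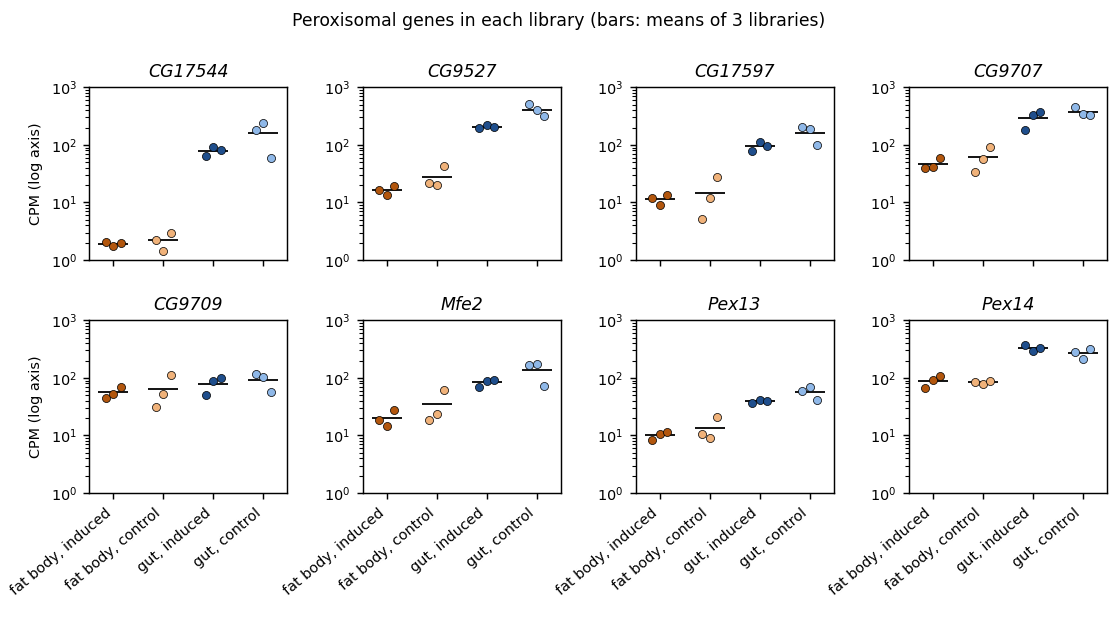
CPM on a log axis of 8 peroxisomal genes in each library, for induced fat bodies, control fat bodies, induced guts and control guts from left to right, with bars at the arithmetic mean of 3 libraries. All fat body points lie below all gut points for CG17544, CG9527, CG17597, CG9707, Mfe2, Pex13 and Pex14, and the CG9709 groups overlap.

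The enzymes that follow the oxidases gave a similar split. Mfe2, the multifunctional enzyme of the hydration step and the oxidation after it, had 18.9, 23.2 and 61.6 CPM in control fat bodies against 168, 173 and 73.2 CPM in control guts. It was 4.15-fold lower in the fat body of induced flies and 3.99-fold lower in that of control flies (log2 -2.0, standard error 0.46, adjusted p = 0.0042, edgeR), and in control flies it was 6.56-fold lower without library 106 and 8.09-fold lower without 106 and 112. CG17597 and ScpX are divergent neighbours on 2L (18829012 to 18831153, minus strand, and 18831229 to 18833630, plus strand), 75 bases apart. ScpX encodes sterol carrier protein X, a peroxisomal thiolase, and CG17597 is a predicted relative of it.

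CG17597 had 11.8, 8.95 and 13.3 CPM in induced fat bodies against 77.8, 111 and 96.4 CPM in induced guts, 8.36-fold lower in the fat body (log2 -3.06, 95% interval -4.16 to -1.97). It had 5.13, 12 and 27.4 CPM in control fat bodies against 202, 191 and 97.8 CPM in control guts, 11-fold lower in the fat body (log2 -3.46, 95% interval -4.57 to -2.35). Both passed 10% FDR and no library overlapped. In control flies CG17597 was 19.1-fold lower without library 106 and 22.9-fold lower without 106 and 112. ScpX had 13.1, 17.5 and 38.9 CPM in control fat bodies against 27.4, 30.1 and 23.2 CPM in control guts, groups that overlapped (log2 fold change -0.22, 95% interval -0.97 to 0.53). Without library 106 ScpX was lower in control fat bodies (log2 -0.82, adjusted p = 0.0222, edgeR), and without 106 and 112 too (log2 -0.91, adjusted p = 0.0102, edgeR). In induced flies the ScpX groups overlapped, at log2 0.07 (95% interval -0.69 to 0.84), which did not pass. The ratio of CG17597 to ScpX per kb was 0.421 to 0.754 in fat bodies and 4.52 to 7.88 in guts.

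Of 13 peroxins, 7 were lower in the fat body in each treatment, beside 21.0% of all genes in induced and 19.9% in control flies. The docking factors Pex13 and Pex14, where cargo receptors meet the peroxisomal membrane, were both lower in the fat body. Pex13 had 10.6, 9.13 and 20.9 CPM in control fat bodies against 58.2, 68.4 and 40.7 CPM in control guts (log2 -2.04, standard error 0.32, adjusted p = 0.000223, edgeR), and was 4.12-fold lower with all libraries and 6.41-fold lower without 106 and 112. Pex14 had 85.7, 79.8 and 88.4 CPM in control fat bodies against 286, 214 and 320.3 CPM in control guts (log2 -1.69, standard error 0.24, adjusted p = 0.000103, edgeR). In induced flies the log2 fold changes were -1.96 for Pex13 and -1.91 for Pex14, and neither gene overlapped between tissues in any library.

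Of the factors that insert peroxisomal membrane proteins, Pex16 and Pex3 were lower in the fat body in both induced and control flies, whereas Pex19 did not pass the test with all libraries. In control flies Pex19 was lower without library 106 (log2 -1.25, adjusted p = 0.0158, edgeR) and without 106 and 112 (log2 -1.54, adjusted p = 0.000766, edgeR). Pex16, the divergent neighbour of Pex14 on 3L with 534 bases between them, had 60.7, 50.4 and 38.5 CPM in control fat bodies against 99.9, 75.1 and 161 CPM in control guts (log2 -1.17, standard error 0.29), and an exon stretch of 11.5% of its length is shared with Pitslre on the opposite strand. The log2 fold changes of Pex3 were -0.60 in induced and -0.56 in control flies. The division factors Pex11ab and Pex11c were lower in the fat body too, at log2 -0.87 and -0.90 in induced flies and -0.95 and -0.92 in control flies. The calls of Pex3 and Pex11c rested on single libraries: in induced flies that of Pex3 was lost without 101, 102, 108 or 109 (adjusted p up to 0.154, edgeR) and that of Pex11c without 101, 102, 103, 107 or 109 (up to 0.187). In control flies that of Pex3 was lost without 104, 105 or 110 (adjusted p up to 0.225, edgeR) and that of Pex11c without 105, 106, 110 or 112 (up to 0.242).

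Pex5, the receptor for most matrix enzymes, had a log2 fold change of -0.07 in induced flies and of -0.54 in control flies (95% interval -1.51 to 0.43). In control flies it was lower without library 106 (log2 -1.23, adjusted p = 0.0268, edgeR) and without 106 and 112 (log2 -1.56, adjusted p = 0.000527, edgeR). Pex6, part of the ATPase that pulls this receptor back out of the membrane, did not pass the test with all libraries, at log2 -0.58 in induced and -0.68 in control flies. It too was lower in control flies without library 106 (log2 -1.22, adjusted p = 0.059, edgeR) and without 106 and 112 (log2 -1.5, adjusted p = 0.0167, edgeR).

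Of the membrane ubiquitin ligases Pex2 and Pex10, Pex2 went the other way. It had 49.2, 43.7 and 37.6 CPM in control fat bodies against 22.7, 18.9 and 35.5 CPM in control guts, higher in all 3 fat bodies, with a log2 fold change of 0.76 (95% interval 0.19 to 1.33, adjusted p = 0.0404, edgeR). The call was lost without control fat body 104 (adjusted p = 0.111), control gut 110 (0.142) or control gut 111 (0.147), and in a fit of only the 6 libraries compared (0.121), all by edgeR. In induced flies its log2 fold change was 0.44 (95% interval -0.12 to 1.01), which did not pass. Pex10 had a log2 fold change of 0.13 in control flies, which did not pass.

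In the carnitine shuttle, whd encodes the outer-membrane carnitine palmitoyltransferase at the entry to mitochondrial oxidation. It had 60.9, 71.8 and 72.2 CPM in induced fat bodies against 218, 195 and 135 CPM in induced guts, and 74.1, 83.6 and 142 CPM in control fat bodies against 270.5, 301 and 158 CPM in control guts. Every fat body lay below every gut of the same treatment, 2.67-fold lower in induced flies (log2 -1.42, standard error 0.32, adjusted p = 0.00353, edgeR) and 2.44-fold lower in control flies (log2 -1.29, standard error 0.31, adjusted p = 0.00637, edgeR). Without libraries 106 and 112 whd was 3.62-fold lower in control flies. CPT2, the inner-membrane transferase, was also lower in the fat body, at log2 -0.94 in induced and -0.82 in control flies. Its call was lost without 101 or 102 in induced flies (adjusted p up to 0.114, edgeR) and without 104, 105, 110 or 111 in control flies (up to 0.215). In control flies CPT2 stood at log2 -1.43 without libraries 106 and 112. The carrier gene colt had 23.2, 27.9 and 70.6 CPM in control fat bodies against 85.1, 83.2 and 39.8 CPM in control guts (log2 -0.78, adjusted p = 0.192, edgeR). The call was gained without 106 (log2 -1.44, adjusted p = 0.00662, edgeR) and without 112 (log2 -1.05, adjusted p = 0.0731, edgeR). Without both libraries, colt was 3.29-fold lower in control fat bodies (log2 -1.72, adjusted p = 0.000501, edgeR). In induced flies colt had 18.9, 20.4 and 34.1 CPM in fat bodies against 44, 49.3 and 46.6 CPM in guts. These groups did not overlap, and colt passed by DESeq2 but not by edgeR (log2 -0.93, adjusted p = 0.108 by edgeR and 0.0703 by DESeq2).

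For the mitochondrial cycle itself no gene passed in control flies with all libraries. Over its 12 genes the log2 fold changes lay between -1.20 and 1.41 in induced flies and between -0.78 and 0.57 in control flies. They include Echs1, the enoyl-CoA hydratase, scu, a 3-hydroxyacyl-CoA dehydrogenase, CG9547, the glutaryl-CoA dehydrogenase of lysine breakdown, and wal, the alpha subunit of the flavoprotein that takes up the electrons. The last had 89.7, 98.4 and 171 CPM in induced fat bodies against 136, 140.1 and 154 CPM in induced guts, and 89.1, 155 and 362 CPM in control fat bodies against 200.0, 173 and 122 CPM in control guts. CG7461 (Acadvl), the very-long-chain dehydrogenase, had 148, 285 and 445 CPM in control fat bodies against 254, 211 and 226 CPM in control guts, and yip2, a thiolase of the last step, had 49.9, 99.2 and 264 CPM in control fat bodies against 131, 114 and 61.3 CPM in control guts. In all 3 genes the control fat bodies reached from below to above the guts, with library 106 the highest. The intervals of the difference ran from -0.40 to 1.10 for CG7461 and from -0.66 to 1.52 for yip2 on the log2 scale. With this spread, differences inside these bounds were not excluded.

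In induced flies Mcad, the medium-chain dehydrogenase, was lower in the fat body, with 42.1, 32.9 and 54.1 CPM against 91.8, 98.1 and 108 CPM in guts (log2 -1.20, adjusted p = 0.0442, edgeR), a call lost without 101, 102 or 109 (adjusted p up to 0.147). It is uncertain as a measure of Mcad, since 92.6% of its exon length overlaps CG7457 on the opposite strand and the sources used here do not say whether counting used strand. CG4860, an acyl-CoA dehydrogenase with 3 to 28 reads per library, had 0.677, 2.61 and 1.64 CPM in induced fat bodies against 0.823, 0.628 and 0.464 CPM in induced guts (log2 1.41, 95% interval 0.05 to 2.76, adjusted p = 0.0982, edgeR). The groups overlapped, and the call was lost without 102, 103, 104, 107, 108, 109 or 110 (adjusted p up to 0.386). The same doubt about strand applies, since 20.7% of CG4860's exon length overlaps asRNA:CR46012 on the opposite strand. That antisense gene has a row in the fat body sheet and none in the gut sheet.

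Without libraries 106 and 112, 6 of those 12 genes of the cycle were lower in control fat bodies, beside 30.7% of all genes. They were Mcad, Arc42, CG3902, Echs1, Mtpalpha and Mtpbeta, with CG3902, a short- and branched-chain dehydrogenase, at log2 -2.54 (adjusted p = 0.000114, edgeR). Without library 106 alone Mcad (log2 -1.58, adjusted p = 0.00145), CG3902 (-2.19, 0.00227) and Mtpbeta (-1.46, 0.0212) of the 12 passed by edgeR. In that fit 25.1% of all genes were lower, a share near that of these 12 genes. The Mtpalpha and Mtpbeta subunits of the trifunctional protein stood at a ratio per kb of 1.13 to 2 in fat bodies and of 0.717 to 1.04 in guts.

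Hnf4 encodes a nuclear receptor known in Drosophila larvae to drive lipid mobilisation and beta-oxidation genes. It had 41.5, 61.2 and 148 CPM in control fat bodies against 72.2, 70.8 and 33.9 CPM in control guts, a log2 fold change of 0.50 (95% interval -0.44 to 1.44) that became -0.48 without libraries 106 and 112. In induced flies it had 42.5, 42.3 and 69.2 CPM in fat bodies against 40.5, 46.3 and 56.2 CPM in guts (log2 0.11, 95% interval -0.84 to 1.05). The groups overlapped in both treatments. Among fat bodies Hnf4 was highest in library 106, as were 23 of the 24 enzyme genes, 8 of 13 peroxins and 30.6% of all genes.

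The order of levels per kb of exon differed between the tissues. In control fat bodies CG7461 (129 ± 65.5 CPM per kb, SD, n = 3), wal (128 ± 90.2) and yip2 (98.9 ± 80.5) stood first, with spreads that do not separate them. Each was highest in library 106, and their lowest control fat body values were 64.9, 56.4 and 35.8 CPM per kb. Pex14 had 63.9 to 70.8 CPM per kb in these libraries, so their place above it was not clear in every library. In induced fat bodies Pex14 (70.1 CPM per kb) stood above yip2 (60.7). In control guts Pex14 (219 ± 43.5 CPM per kb, SD, n = 3) stood first, followed by CG9707 (147 ± 25.8) and CG9527 (142 ± 33.2), which were not separated from each other. CG17544 was 37th of 38 in control fat bodies and 12th in control guts.

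**Figure D3:**
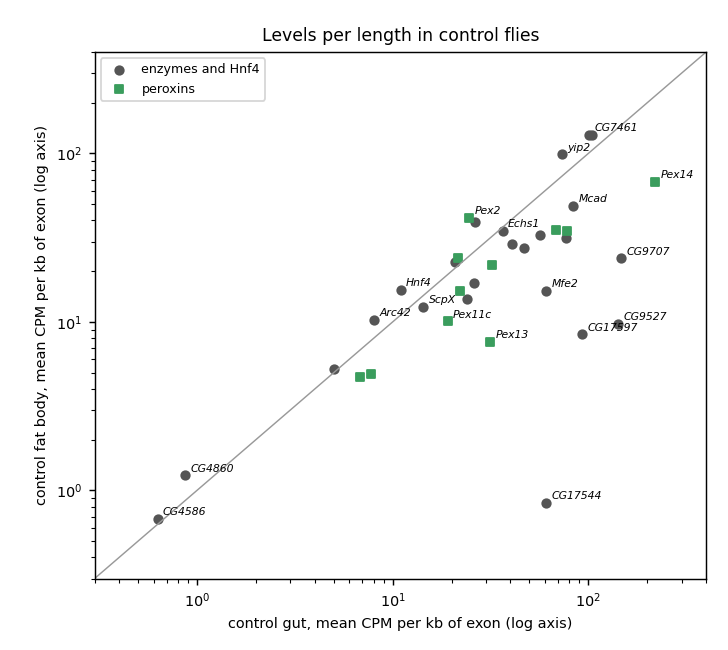
Mean level per kb of exon in control fat bodies (vertical, log axis) against control guts (horizontal, log axis), 1 point for each of 35 members, means of 3 libraries, with the line of equal levels. Peroxisomal genes such as CG17544, CG9527 and Pex13 lie below the line, while CG7461 and yip2 lie slightly above it.

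In the gut, 33 of 38 members had a lower mean in induced than in control flies, beside 56.1% of all genes. Of the members 0 passed the test. The median log2 fold change over the members was -0.34, beside -0.06 over all genes. By role, the medians were -0.60 for the carnitine shuttle, -0.64 for the acyl-CoA dehydrogenases, -0.38 for the later steps, -0.69 for the oxidases, -0.75 for the other peroxisomal enzymes and -0.11 for the peroxins. By edgeR 5 of 10358 genes passed 10% FDR (0.0483%), all higher, and DESeq2 called 43 genes, of which 6 were lower (0.0579%) and 1 was a member, CG9527. At an unadjusted p under 0.05, edgeR had 4 members lower and 0 higher, beside 3.22% of all genes lower.

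Those 4 members were all peroxisomal or of the carnitine shuttle. CG9527 had 196, 219.7 and 201 CPM in induced guts against 511, 403 and 320.1 CPM in controls, groups that did not overlap (log2 -1.03, standard error 0.24, adjusted p = 0.765 by edgeR and 0.0357 by DESeq2). ScpX had 18.1, 15.1 and 17.2 CPM in induced guts against 27.4, 30.1 and 23.2 CPM in controls (log2 -0.71, standard error 0.21, adjusted p = 0.836, edgeR). CPT2 had 39.1, 36.5 and 34.5 CPM in induced guts against 63.9, 64.1 and 42.4 CPM in controls (log2 -0.66, standard error 0.24). These 3 were the members whose groups did not overlap, and 4.61% of all genes were lower in this way. CG17597 had 77.8, 111 and 96.4 CPM in induced guts against 202, 191 and 97.8 CPM in controls, with control 112 inside the induced range (log2 -0.81, standard error 0.32).

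CG17544, Mfe2 and colt showed the place of library 112 most plainly. CG17544 had 64.8, 93.7 and 80.0 CPM in induced guts against 179, 244 and 59.5 CPM in controls, and Mfe2 had 70.2, 88.1 and 92.6 CPM in induced guts against 168, 173 and 73.2 CPM in controls. For colt the values were 44, 49.3 and 46.6 CPM in induced guts and 85.1, 83.2 and 39.8 CPM in controls. In each gene controls 110 and 111 stood above all induced guts and 112 lay below them or among them. The log2 fold changes were -1.05 for CG17544, -0.75 for Mfe2 and -0.60 for colt, and none passed the test.

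whd had 218, 195 and 135 CPM in induced guts against 270.5, 301 and 158 CPM in controls (log2 -0.44, 95% interval -1.16 to 0.27). Hnf4 had 40.5, 46.3 and 56.2 CPM in induced guts against 72.2, 70.8 and 33.9 CPM in controls (log2 -0.34, 95% interval -1.08 to 0.40). Both had overlapping groups.

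Library 112 was left out after its low values in the members had been seen, so this fit is no independent test of a decrease. Without it, 14 of 38 members were lower in induced guts at 10% FDR in edgeR and 0 were higher. Of all genes 6.26% were lower and 2.23% higher. The members' median log2 fold change was -0.60, beside -0.03 over all genes. The 14, named because they passed in this fit, were CPT2 and colt of the shuttle, Arc42 and CG3902, Echs1, Mtpalpha and Mtpbeta, CG9527 and CG17544, Mfe2, ScpX and CG17597, and the peroxins Pex5 and Pex13. CG17544 was 2.71-fold lower (log2 -1.44, standard error 0.23, adjusted p = 0.0536, edgeR), CG9527 2.26-fold (log2 -1.18, adjusted p = 0.0499, edgeR), CG3902 2.15-fold, Mtpbeta 2.08-fold and Pex5 2.25-fold. Leaving out any other gut library gave 0 calls among all genes.

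Of 24 enzyme genes, 20 had gut controls 110 and 111 above all induced guts, and 4 of 13 peroxins did, beside 26.0% of all gut genes. Both controls lay below all induced guts for 3 peroxins, beside 25.6% of all gut genes. Only 5 members had a higher mean in induced guts, all of them peroxins, and the 4 with the smallest p are given here. Pex14 had 366, 296 and 329 CPM in induced guts against 286, 214 and 320.3 CPM in controls (log2 0.25, 95% interval -0.26 to 0.76). Pex2, Pex3 and Pex16 had log2 fold changes of 0.16, 0.13 and 0.19, and none passed the test.

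Several other measures varied among the gut libraries beside these genes. Summed over 4 tubule markers (Uro and others), guts had 170.4, 12.8 and 10.5 CPM when induced and 104, 115 and 17.3 CPM in controls, so that library 112 was low in tubule transcript and 110 and 111 were not, and induced gut 107 was the highest. The summed level of the 8 fat body markers was also lowest in library 112, at 789 CPM against 1884 and 2336 CPM in the other controls and 1587 to 2638 CPM in induced guts. That sum includes tobi, which was higher in guts. Of the yolk protein genes, Yp1 had 421, 482 and 749 CPM in induced guts against 837, 918 and 234 CPM in controls, so that controls 110 and 111 lay above all induced guts and 112 below them, as in CG17544 and colt. Yp2 and Yp3 were placed alike. Ovary markers were at 1071 CPM in induced gut 109 and at or below 184 CPM in the other guts. Their part in the result was not tested.

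**Figure D4:**
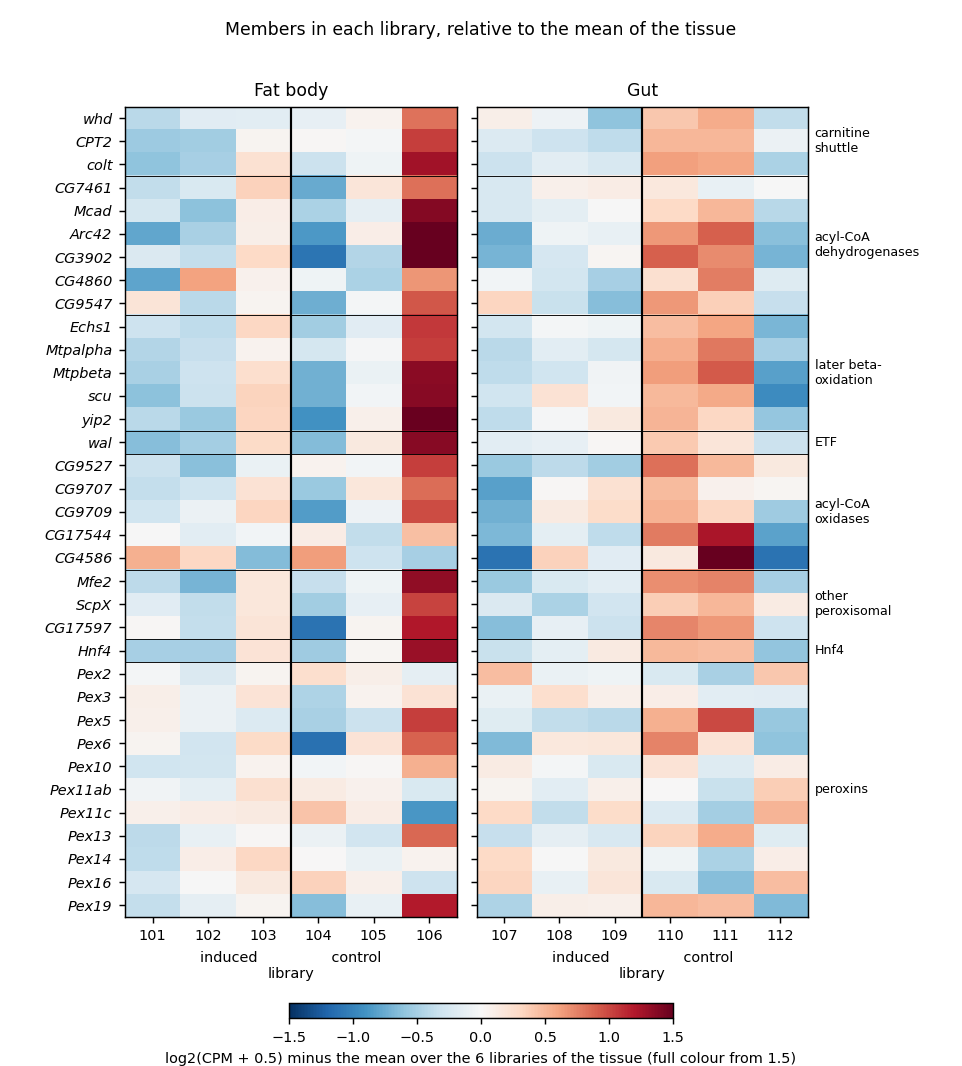
Each of 35 members in each library as log2(CPM + 0.5) minus its mean over the 6 libraries of the tissue (red above, blue below, full colour from 1.5), with fat bodies on the left and guts on the right and induced libraries left of controls in each. The column of library 106 is red for nearly all enzymes, with a median of 1.04 over the 24 enzyme genes, and gut columns 110 and 111 are red with medians of 0.50 and 0.56 while 112 is blue at -0.44.

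In the fat body, 33 of 38 members also had a lower mean in induced than in control flies, beside 55.2% of all genes. Of the members 0 passed. By edgeR 0 of 11056 genes passed 10% FDR (0.0%), 188 were higher and 114 lower at an unadjusted p under 0.05 with no member among them, DESeq2 called 16 genes, none a member, and limma called 0. The members' median log2 fold change was -0.39, beside -0.05 over all genes. Without library 106 the median was 0.05, beside 0.02 over all genes. Then 14 members were below 0, beside 48.3% of all genes, so the lower mean of the group rested on that library. No gene passed 10% FDR without it either (328 higher and 270 lower at an unadjusted p under 0.05, edgeR).

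whd and CG9527 were the members with non-overlapping groups, and 3.92% of all genes were lower in this way. whd had 60.9, 71.8 and 72.2 CPM in induced fat bodies against 74.1, 83.6 and 142 CPM in controls (log2 -0.55, 95% interval -1.21 to 0.11), a gap of little width below the lowest control. CG9527 had 16.4, 13.2 and 19.2 CPM in induced fat bodies against 21.5, 20 and 42.9 CPM in controls (log2 -0.80, 95% interval -1.62 to 0.02). Without library 106 the log2 fold changes were -0.20 for whd and -0.35 for CG9527, and neither passed.

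CPT2 had 16.2, 16.4 and 24.5 CPM in induced fat bodies against 24, 23.4 and 49.3 CPM in controls (log2 -0.77, standard error 0.36), and Arc42, a short-chain dehydrogenase, had 4.4, 5.5 and 8.42 CPM in induced fat bodies against 4.13, 8.52 and 31.4 CPM in controls (log2 -1.27, standard error 0.71). Library 106 lay far above the others for both. Without it the log2 fold change was -0.31 for CPT2 and -0.02 for Arc42. For colt, with 18.9, 20.4 and 34.1 CPM in induced fat bodies against 23.2, 27.9 and 70.6 CPM in controls, it was -0.74 with library 106 and -0.05 without. For Hnf4 it was -0.71 with library 106 and 0.01 without.

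The members with a higher mean in induced fat bodies were close to 0, with Pex3 at log2 0.11, Pex11c at 0.12, CG4586 at 0.13, Pex14 at 0.04 and Pex11ab at 0.02. Each of them turned negative when 1 of the libraries was left out. Pex11c, with 11.7, 12 and 12.2 CPM in induced fat bodies against 15.1, 12 and 5.82 CPM in controls, was unlike the enzymes in that library 106 held its lowest value. Library 106 was the highest for 8 of 13 peroxins, against 23 of 24 enzyme genes, beside 30.6% of all genes.

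Library 106 also had the highest summed level of the 8 fat body markers, at 100137 CPM against 23309.6 to 44249 CPM in the other 5, most of it from yolk protein genes such as Yp1, and 5 of the 8 were each highest in it, which apolpp, tobi and fit were not. Its sum was highest for the 8 oenocyte markers too (6 of 8 each highest, eloF and bond not), at 68703 CPM against 29273 to 49461 CPM, and lowest for the 9 ovary markers (4 of 9 each lowest), at 55.5 CPM against 148 to 423 CPM. It also held the most tubule transcript, at 203 CPM against 54.7 to 144 CPM, and the most haemocyte transcript, at 284 CPM against 107 to 213 CPM. Muscle markers, at 4277 CPM, lay inside the range of the others. The part of these in the level of the members was not tested.

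**Figure D5:**
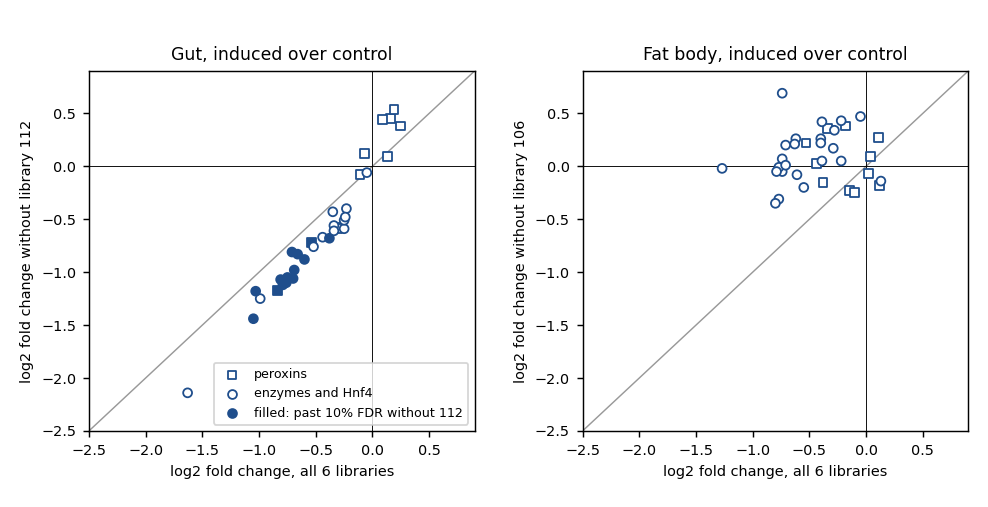
Log2 fold change of induced over control for each of 35 members with all 6 libraries (horizontal) and without control library 112 in the gut or 106 in the fat body (vertical), with the line of equality. In the gut the enzymes lie below the line and 14 filled points pass 10% FDR without library 112, and in the fat body the points lie around 0 on the vertical axis, with a median of 0.05 over all 38 members.

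The induction effect was compared between the tissues as an interaction over the 12 libraries. By edgeR 0 of 10005 genes passed 10% FDR (0.0%), 183 were higher and 159 lower at an unadjusted p under 0.05 with no member among them, and DESeq2 called 13 genes, none a member. The members' median difference in log2 fold change, fat body minus gut, was -0.05, beside 0.00 over all genes. The smallest p among the members belonged to CG17544, with a difference of 0.80 (95% interval -0.59 to 2.19, adjusted p = 0.999, edgeR). CG4586 had 1.72 and CG4860 0.94, both with few reads, and Pex5 0.47. On the other side were wal at -0.55, Pex2 at -0.32 and Pex10 at -0.28. For whd, colt and Hnf4 the differences were -0.13 (95% interval -1.08 to 0.82), -0.15 (-1.44 to 1.13) and -0.40 (-1.73 to 0.94). Without libraries 106 and 112 the members' median was 0.74, beside 0.06 over all genes, and 0 genes passed by edgeR. At an unadjusted p under 0.05 there were 13 members higher and 2 lower, beside 1164 and 1028 of all genes, and the smallest adjusted p of a member was 0.129.

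Of 41 further genes of fatty acid activation, oxidation, ketone and carnitine metabolism and the peroxisome, listed with earlier results of these data known, 36 were in both sheets. In induced flies 8 of them were higher and 10 lower in the fat body, beside 22.7% and 21.0% of all genes. In control flies 7 were higher and 8 lower, beside 18.3% and 19.9%, with medians of 0.11 in induced and 0.04 in control flies on the log2 scale, beside 0.05 and 0.00 over all genes. The largest differences towards the fat body were in CG4335 and CG5321, predicted enzymes of carnitine synthesis. CG4335 had 143, 114 and 117 CPM in control fat bodies against 1.66, 0.382 and 2.6 CPM in control guts (log2 6.42, standard error 0.56), and CG5321 had 7.47, 16.6 and 53.6 CPM in control fat bodies against 0.831, 2.2 and 0.173 CPM in control guts (log2 4.46, standard error 0.80). The third was ACC, which makes malonyl-CoA for fatty acid synthesis, with 262, 251 and 536 CPM in control fat bodies against 58.6, 70.6 and 34.1 CPM in control guts (log2 2.68).

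Lower in the fat body was ADPS, the peroxisomal enzyme of ether lipid synthesis, with 0.558, 0.974 and 0.912 CPM in control fat bodies against 13, 18.9 and 10.4 CPM in control guts (log2 -4.10, standard error 0.52). CrAT, carnitine acetyltransferase, had a log2 fold change of -1.74 in induced and -1.52 in control flies. Scot, which activates ketone bodies, was at -1.32 in induced flies, and the lipase gene bmm was at -1.51 in control flies. On induction 0 of the 36 passed in either tissue by edgeR. Without library 112, 6 were lower in induced guts and 0 were higher, beside 6.26% of all genes lower and 2.23% higher, with CG9577 at log2 -1.0, CG5844 at -0.93 and CG9149 at -0.89. Without library 106, 0 passed in the fat body.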

How the data were processed

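For each tissue the authors deposited raw counts per gene and, separately, values on the log2-like variance-stabilised scale of DESeq2. Reads had been cleared of duplicates with Je, aligned with HISAT2 and assigned to genes with featureCounts. The authors' sheets hold only part of all annotated genes. Of the gene identifiers, 10279 from the gut sheet and 10969 from the fat body sheet found a symbol in Ensembl release 115 (BDGP6.54).

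The deposited counts were tested here with edgeR 4.0.16 (quasi-likelihood test, TMM, at least 1 count, Benjamini-Hochberg adjustment over all genes, 10% FDR) in R 4.3.3, on 6 libraries for induction within a tissue and on 12 libraries with 4 group means for contrasts between tissues. The steps were tested on simulated data. DESeq2 1.42.0, limma 3.58.1 on the variance-stabilised values, other normalizations, a filter on low counts, 5% FDR, a fit of the compared libraries and leaving out each library were alternatives. edgeR's common biological coefficient of variation was 33.9% for gut libraries, 39.8% for fat body libraries and 34.9% over both.

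Named were, for each comparison, up to 6 members per direction with the largest change past 10% FDR, or, where none passed, the 4 with the smallest p in each direction, and always Hnf4, whd and colt, with up to 3 further pathway genes per direction, less any member not reported here. Other members are given as examples chosen after their values were seen. Members and lists were chosen with earlier results of these data known. The log2 fold changes are of induced over control and of fat body over gut. Members that are not reported here by name and value, 3 in number, stay in the counts and medians and are left out of the figures.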

Additional observations from a re-analysis of the deposited data

How the results depend on the processing

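No member passed on induction in the gut by edgeR, whereas DESeq2 called 1, and leaving out 1 library gave between 0 and 14. Leaving out 1 library gave 0 calls in the fat body and in the interaction. For fat body against gut, leaving out 1 library gave 11 to 18 member calls in induced flies and 10 to 23 in control flies, and 26 in control flies without libraries 106 and 112. With library totals alone the median of all genes shifted to 0.53 in induced and 0.25 in control flies, the members' split became 2 higher and 9 lower in induced flies and 1 higher and 10 lower in control flies, the split over all genes became 3988 higher and 1430 lower in induced flies and 2562 and 1654 in control flies, and no called member changed sign. A call of CG4860 in induced flies was lost with DESeq2 (adjusted p = 0.148) and that of Pex2 in a fit of 6 libraries. A call of colt in induced flies was gained with DESeq2 (adjusted p = 0.0703). The cause was not tested.

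Some small differences changed sign when 1 library was left out. In the gut on induction Pex16 ran from -0.0017 to 0.54 on the log2 scale and Pex2 from -0.03 to 0.45. In the fat body on induction Pex3 ran from -0.06 to 0.27, Pex11c from -0.18 to 0.44, CG4586 from -0.17 to 0.75, Pex14 from -0.12 to 0.21 and Hnf4 from -1.03 to 0.01. For fat body over gut Hnf4 ran from -0.22 to 0.24 in induced flies and from -0.20 to 0.83 in control flies, with -0.48 without libraries 106 and 112. In the interaction wal ran from -0.96 to 0.17, CG4586 from -0.26 to 2.61, whd from -0.31 to 0.21, colt from -0.52 to 0.52 and Hnf4 from -0.73 to 0.31. Without libraries 106 and 112 the interaction was 0.35 for wal, 0.44 for whd, 0.79 for colt and 0.58 for Hnf4, and with library totals alone it was 0.18 for whd and 0.17 for colt. No paired analysis was possible because the labels carry no replicate numbers.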

Other observations

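Neighbouring or partner genes of the peroxisome differed in how fixed their proportion was within a library. Pex11ab and Pex11c, both peroxisome division factors, stood at a ratio per kb of 2.79 to 5.66 in the 6 fat bodies (median 3.27) and of 2.86 to 4.02 in the 6 guts (median 3.55), overlapping ranges. Pex14 over Pex13, the docking partners, ran from 5.99 to 13.1 in fat bodies (median 11.9) and from 4.43 to 14.2 in guts (median 10.6), which also overlap. Pex14 over its neighbour Pex16 ran from 1.63 to 2.64 in fat bodies (median 2.06) and from 2.29 to 3.3 in guts (median 3.02), ranges that overlap in part. Pex2 over Pex10, which act in the same ubiquitin ligase complex, ran from 1.19 to 2.32 in fat bodies (median 1.98) and from 0.896 to 1.53 in guts (median 1.26). These ranges overlap in part too. In control fat body 106 the ratio of Pex11ab to Pex11c was 5.66, against 2.79 to 3.74 in the other fat bodies, and that of Pex14 to Pex13 was 5.99, against 11 to 13.1. These pairs were picked after their values were seen, and no test was made of them.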
